A study of Homo sapiens with 12 samples.

Results

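Nuclear pore proteins and RNA export factors were followed by RNA sequencing in U2OS, an osteosarcoma cell line of human origin, with stable eIF4E-Flag or with the empty vector. The set was given as 37 named rows of a count table of 58684 rows by their names, picked with earlier results of these data known. A row was found for 36 of them, while NUP153-AS1, the antisense RNA annotated opposite to NUP153, was not analysed here. Libraries came in 4 groups of 3, namely Cap IP (RNA immunoprecipitated by its m7G cap) and input RNA of eIF4E-Flag cells, and Cap IP and input RNA of vector cells. All 12 libraries were of the same parental line, and the labels do not say whether each stable line is 1 clone or a pool. Nothing in the labels says that replicates came from separate cultures, and the p-values therefore speak of the spread among these libraries alone, which may be technical. By its title, the study is about whether eIF4E raises the capping of coding and noncoding transcripts. Values are counts and CPM, which are counts scaled to TMM-adjusted library sizes, and fold changes are log2 values of edgeR's quasi-likelihood fit over all 12 libraries. A row was called where its Benjamini-Hochberg adjusted p over all tested rows was under 0.05.

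The nuclear pore complex is built from nucleoporins. An outer ring (the Y complex) and an inner ring form the scaffold, membrane nucleoporins anchor it, and a mesh of phenylalanine-glycine repeats fills the channel. A basket reaches into the nucleus, and filaments on the cytoplasmic side hold the machinery that strips export factors from RNA. Bulk mRNA leaves the nucleus with NXF1 and NXT1, loaded by adaptors such as ALYREF. Exportin XPO1 carries cargoes bound to Ran-GTP, and RANGAP1, RANBP1 and RANBP2 promote GTP hydrolysis by Ran at the cytoplasmic side. eIF4E binds the cap in the cytoplasm for translation and in the nucleus promotes XPO1-dependent export of a subset of mRNAs. Earlier work in U2OS cells linked raised eIF4E to lower RANBP2 protein, displaced NUP214 and higher RANBP1, GLE1 and DDX19.

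The starts of 4 genes on which the results turn are shown, because the cap sits on the first transcribed base and because the start of NUP153 lies under an antisense gene, and the other 3 show a motif shared by many of the members' promoters. Sequences are from RefSeq for GRCh38.p14. For NUP153, on the minus strand at chr6:17706896-17707175, the 250 bases before the start are in lower case and the first 30 transcribed bases in capitals. For NUP214 on the plus strand at chr9:131125336-131125585, SEH1L on the plus strand at chr18:12947761-12948010 and NUP50 on the plus strand at chr22:45163675-45163924, the 250 bases before the start are shown with CCGGAAG in capitals.
NUP153: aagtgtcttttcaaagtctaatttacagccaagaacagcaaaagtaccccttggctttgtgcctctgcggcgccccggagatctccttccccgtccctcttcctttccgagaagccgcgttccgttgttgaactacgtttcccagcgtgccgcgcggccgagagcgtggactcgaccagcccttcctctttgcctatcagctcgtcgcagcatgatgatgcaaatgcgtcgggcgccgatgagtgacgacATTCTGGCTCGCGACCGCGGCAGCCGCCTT
NUP214: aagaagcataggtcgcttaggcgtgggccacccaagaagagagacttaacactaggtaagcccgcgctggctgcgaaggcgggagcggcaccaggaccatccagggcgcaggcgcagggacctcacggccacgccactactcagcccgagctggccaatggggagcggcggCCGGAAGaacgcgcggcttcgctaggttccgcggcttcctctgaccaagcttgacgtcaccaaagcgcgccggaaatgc
SEH1L: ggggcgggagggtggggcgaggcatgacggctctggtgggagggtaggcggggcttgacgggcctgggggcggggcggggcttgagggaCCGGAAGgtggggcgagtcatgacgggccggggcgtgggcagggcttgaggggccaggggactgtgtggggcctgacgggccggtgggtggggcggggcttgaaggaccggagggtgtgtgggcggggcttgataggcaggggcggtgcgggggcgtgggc
NUP50: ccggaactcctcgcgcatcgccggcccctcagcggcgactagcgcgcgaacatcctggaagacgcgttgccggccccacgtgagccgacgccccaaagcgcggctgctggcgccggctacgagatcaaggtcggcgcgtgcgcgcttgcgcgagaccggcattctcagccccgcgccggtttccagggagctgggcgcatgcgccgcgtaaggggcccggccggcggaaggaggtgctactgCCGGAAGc
The whole NUP153 window lies inside NUP153-AS1, which GENCODE release 44 places on the plus strand at chr6:17706094-17707344 and which shares 649 exon bases with NUP153. The motif CCGGAAG, which is of the ETS type, was searched on both strands, and no other motif overlapping it was counted. It was present in 13 of 32 member promoters found in the RefSeq table (40.62%), against 10.67% of all 27305 promoters of the same length. The motif TATAAA, searched on both strands, was present in 2 of the 32 (ALYREF and NXF1, 6.25%), against 11.95% of all promoters. The first transcribed base was A in 16, G in 11, C in 5 and T in 0 of the 32 members, against 44.27%, 33.15%, 14.99% and 7.59% of all promoters. The 32 members here are not the 32 tested ones, since RANBP1, GLE1, AHCTF1 and NUP43 had no entry in the RefSeq table. Motif shares were counted over windows that also held some transcribed bases after the start, for members and for all promoters. The set of all promoters was not limited to tested rows. A match in these letters is a description and not a binding site.

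Total counts per library lay between 1206321 and 1813486, and the members held 0.102% to 0.215% of them. The level of 3 counts was 1.16 to 3.09 CPM, and 32 members had enough counts to be tested among 12460 tested rows. The other 4 members, NUP35, NUP37, NUP54 and NDC1, had 0 to 13 counts in each library. EIF4E had 15.1, 12.9 and 11.7 CPM in eIF4E input libraries, against 9.51, 4.72 and 6.22 CPM in vector input libraries, with no overlap, and the difference of 0.98 ± 0.36 (log2, SE) did not pass the threshold (edgeR adjusted p = 0.231). Of the cell type markers, the summed level of 8 mesenchymal genes was 1100 to 1370 CPM in eIF4E Cap IP, 1910 to 2430 CPM in eIF4E input, 1210 to 2570 CPM in vector Cap IP and 2250 to 3040 CPM in vector input. That of 4 epithelial genes, 2 of them the keratins KRT8 and KRT18, was 4800 to 6440 CPM in eIF4E Cap IP, 2390 to 3900 CPM in eIF4E input, 2990 to 4560 CPM in vector Cap IP and 1340 to 2200 CPM in vector input. Most of the epithelial sum was KRT8, at 1070 to 5910 CPM in a library, while EPCAM had at most 9.39 CPM and CDH1 at most 28.8 CPM. Among the mesenchymal genes, COL1A2 had at most 1.27 CPM. Blood and liver markers summed to at most 1.03 CPM in a library. The part of these shifts in the members' results was not tested.

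Which strand each row counts bears on what every value here stands for. The library kit keeps strand, but whether reads were counted by strand, and by which, is not given here. Of 692 pairs of an antisense-named row and its sense row with at least 120 counts together, the antisense-named row held more counts in 283. MT-ND6, the mitochondrial mRNA on the other strand, had a mean of 6805 counts per library, against a median of 1378 over 12 mRNAs of the heavy strand. For every row it is therefore uncertain whether reads of the named gene's strand or of the opposite strand were counted, and each gene name used here stands for the row of that name. For a row with exons opposite to another gene, the reads may be that gene's. By GENCODE release 44, 20 of the 37 named genes have such exons and 17 have none. NUP153 is among the 20, by way of NUP153-AS1, so its values may belong to either gene. Of the members lower in Cap IP in both kinds of cell, NUP93, NUP205, NUP210 and RANBP2 have no annotated opposite exons, and NUP188, NUP98 and NUP214 have some, but the doubt about strand holds for all 7.

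Per kilobase of exon, the input levels of the members spanned a wide range. Exon length was that of all annotated transcripts of a gene merged, so the order of genes depends on the annotation. NUP54, with 15569 exon bases, and NUP37, with 3488, had 3.15 and 3.04 CPM in vector input. ALYREF, the TREX adaptor, stood at 65.9 CPM per kb in eIF4E input and 52.9 CPM per kb in vector input. RANBP1, the soluble Ran-binding protein, stood at 62.8 CPM per kb in eIF4E input and 64.4 CPM per kb in vector input. RANGAP1 followed with 26.1 CPM per kb in eIF4E input and 16.8 CPM per kb in vector input. These 3 rows stood above every nucleoporin, of which NUP62, a channel protein, was the highest in eIF4E input with 13.8 CPM per kb and SEC13 the highest in vector input with 10.7 CPM per kb. At the low end were NUP54 with 0.136 CPM per kb in eIF4E input and 0.202 CPM per kb in vector input, and RANBP2 with 0.458 CPM per kb in eIF4E input and 0.353 CPM per kb in vector input. NUP35 lay below RANBP2 in both, at 0.292 CPM per kb in eIF4E input and 0.244 CPM per kb in vector input. NUP37 did so in eIF4E input, at 0.242 CPM per kb.

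**Figure D1:**
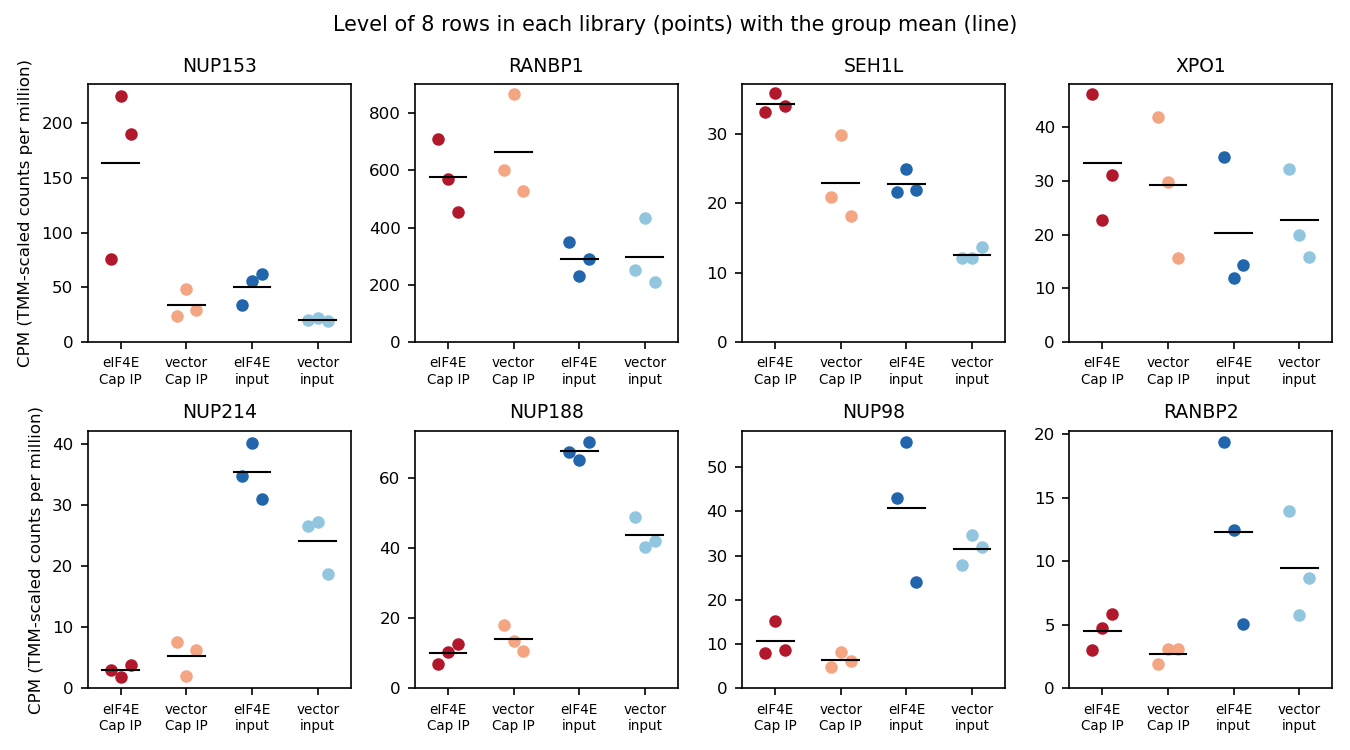
Level of nuclear pore and RNA export rows in each library, for 8 members, in CPM on linear axes that start at 0. The groups from left to right are eIF4E Cap IP, vector Cap IP, eIF4E input and vector input. Points are single libraries, 3 in each group, and lines are group means. The NUP153 points of eIF4E-Flag Cap IP, from 75.4 CPM upwards, lie above all 9 other libraries.

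In input RNA, the comparison of eIF4E with vector cells asks whether the factor changes the amount of pore and export mRNAs. None of the 32 members passed the threshold in edgeR (higher 0, lower 0), where 0.530% of all 12460 tested rows passed, 0.104% higher and 0.425% lower. An unadjusted p under 0.05 was found for 4 members and 1681 rows, and DESeq2 called 0 members and 151 rows. The median log2 difference was 0.25 over the members and -0.05 over all tested rows, with 22 members above 0 and 10 below. The members' median moved to 0.0907 without eIF4E input replicate 1 and to 0.079 without vector input replicate 3. In bulk RNA, less RNA per cell and fewer cells holding it cannot be told apart.

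NUP153 (chr6:17615035-17706925, minus strand, GRCh38), a basket protein that binds the pore's nuclear ring, had the largest log2 difference of the members in input. It had 34.1, 55.6 and 62.1 CPM in eIF4E input, against 20.3, 22.0 and 18.7 CPM in vector input. Every eIF4E input library was above every vector input library. The log2 difference was 1.31 ± 0.38 (SE, n = 3 each) and missed the threshold (edgeR adjusted p = 0.135). With no filter on low counts it passed at 1.41 (edgeR adjusted p = 0.00832). SEH1L, which sits in the outer ring and also in the GATOR2 complex of nutrient signalling, had 21.7, 24.9 and 21.9 CPM in eIF4E input and 12.04, 12.1 and 13.7 CPM in vector input. Its groups did not overlap either, and its difference was 0.85 ± 0.30 (edgeR adjusted p = 0.212). NUP188 of the inner ring had 67.4, 65.2 and 70.2 CPM in eIF4E input and 48.8, 40.4 and 41.9 CPM in vector input, again with no overlap and a difference of 0.63 ± 0.28 (edgeR adjusted p = 0.32). Counting NUP214 and NXF1, 5 members were higher in every eIF4E input library than in any vector input library and 0 were lower in every one, where 8.34% and 10.3% of all tested rows did so.

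The export genes that earlier work links to eIF4E gave no called difference in input RNA. RNA counts do not measure RANBP2 protein or the position of NUP214, so these values do not test those earlier results. RANBP2, the large filament nucleoporin with SUMO ligase activity, had 19.4, 12.5 and 5.09 CPM in eIF4E input and 13.9, 5.76 and 8.71 CPM in vector input. The groups overlapped, and the 95% interval of the log2 difference ran from -0.56 to 1.38. NUP214, the filament nucleoporin that binds XPO1 and the helicase DDX19, had 34.9, 40.2 and 31.1 CPM in eIF4E input and 26.6, 27.2 and 18.7 CPM in vector input, with an interval of -0.13 to 1.24. RANBP1 had 350.0, 230.0 and 291 CPM in eIF4E input and 251, 432 and 209 CPM in vector input, with overlapping groups and an interval of -0.69 to 0.62. GLE1, which activates the helicase, had 31.4, 19.6 and 26.0 CPM in eIF4E input and 30.4, 25.1 and 26.1 CPM in vector input, with an interval of -0.71 to 0.55. DDX19B, the helicase itself, had 22.5, 10.5 and 17.3 CPM in eIF4E input and 15.2, 18.9 and 9.96 CPM in vector input, with an interval of -0.59 to 1.01. For RANBP2, NUP214 and DDX19B a difference of 1 on the log2 scale lies within the interval and is not excluded. Differences near 1 also missed the threshold in input, as for NUP153 at 1.31 and EIF4E at 0.98. RAE1, the mRNA-binding partner of NUP98, had 16.3, 8.15 and 14.8 CPM in eIF4E input and 19.6, 13.6 and 7.88 CPM in vector input. XPO1 had 34.5, 11.98 and 14.2 CPM in eIF4E input and 32.3, 19.9 and 15.8 CPM in vector input, and NXF1 had 23.2, 23.0 and 27.0 CPM in eIF4E input and 20.3, 18.3 and 19.5 CPM in vector input. Of these 3 receptors and partners, NXF1 alone had groups without overlap, and its difference of 0.33 ± 0.37 did not pass (edgeR adjusted p = 0.723).

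**Figure D2:**
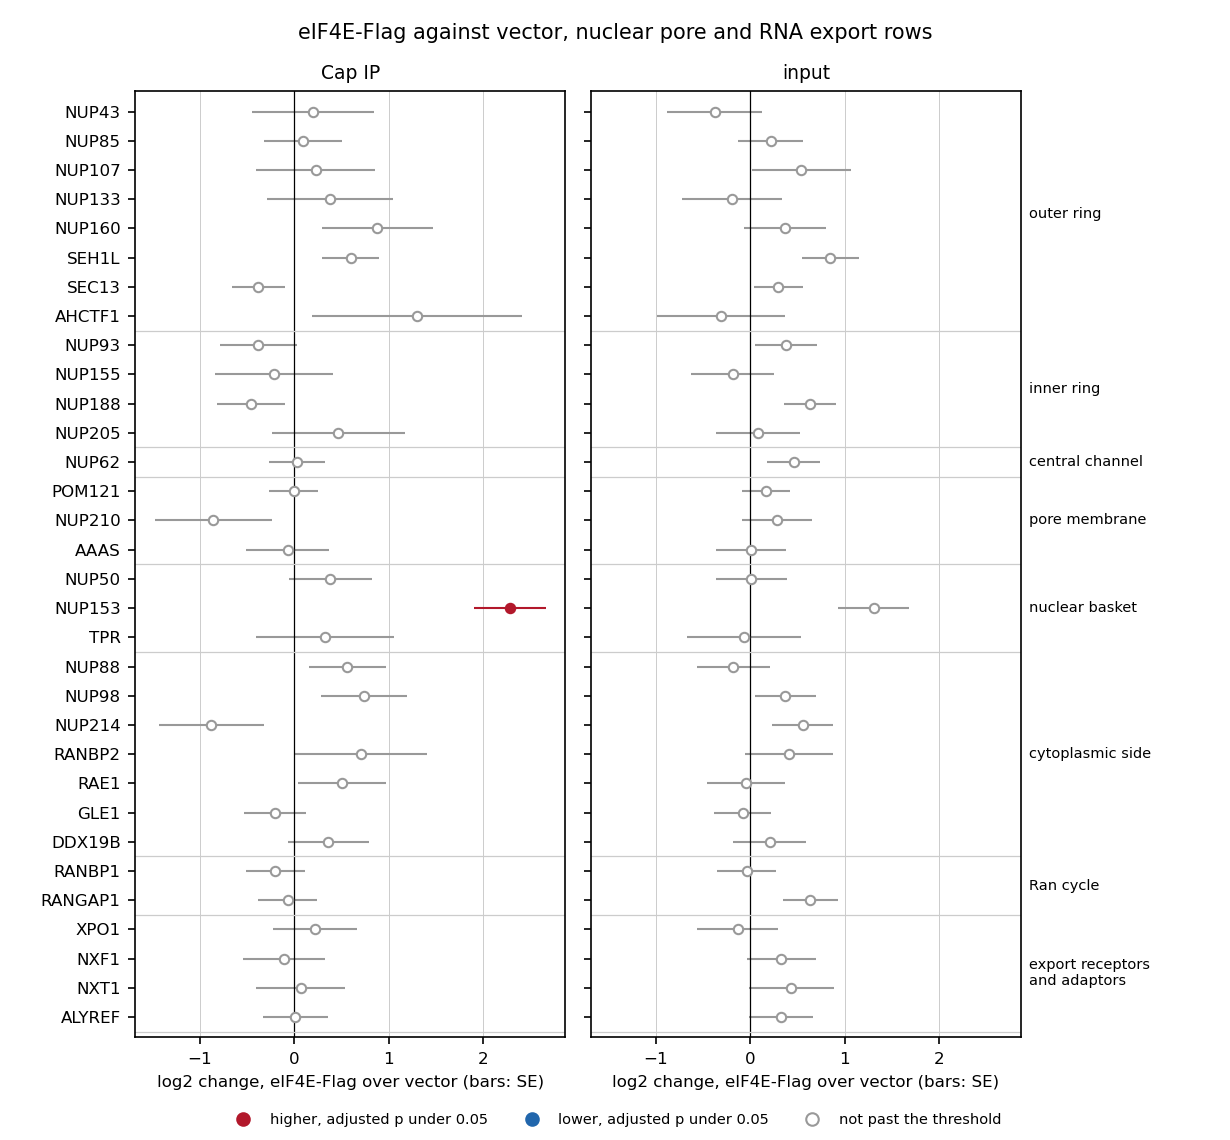
Log2 difference of eIF4E-Flag over vector cells for the 32 tested members, in Cap IP on the left and in input on the right, with bars of 1 SE and members grouped by role. NUP153 in Cap IP, at 2.28, is the filled point; every other member in both panels did not pass the threshold.

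In Cap IP RNA, the same comparison asks whether the level of pore and export mRNAs in the capped fraction differs between the cells. It is not adjusted for input, so it mixes the amount of RNA with its recovery by the cap antibody. NUP153 was the 1 member called, and it was higher in eIF4E cells, where 0.225% of all tested rows were called, 0.0803% higher and 0.144% lower. It had 75.4, 225 and 190.5 CPM in eIF4E Cap IP, against 23.8, 48.4 and 29.4 CPM in vector Cap IP. The lowest eIF4E library stood above the highest vector library. The log2 difference was 2.28 ± 0.38 (SE, n = 3 each, edgeR adjusted p = 0.0232). The call was lost without eIF4E Cap IP replicate 2 (2.01, edgeR adjusted p = 0.155), eIF4E Cap IP replicate 3 (2.17, adjusted p = 0.0908), vector Cap IP replicate 1 (2.11, adjusted p = 0.059) or vector Cap IP replicate 3 (2.22, adjusted p = 0.0827). With the shared tag of the titles as a replicate block it was 2.23 (edgeR adjusted p = 0.000105). NUP153 also stood higher in input, at 1.31 without passing. The difference of its Cap IP effect, eIF4E minus vector, was 0.97 and did not pass (edgeR adjusted p = 0.832). Groups did not overlap for 2 members higher (NUP153 and SEH1L) and 1 lower (SEC13), where 6.16% of all tested rows were higher and 7.39% lower without overlap. SEH1L had 33.2, 36.0 and 34.0 CPM in eIF4E Cap IP and 21.0, 29.9 and 18.1 CPM in vector Cap IP, a difference of 0.60 ± 0.31 that did not pass (edgeR adjusted p = 0.582). The median log2 difference was 0.14 over the members and -0.01 over all tested rows. The members' median ranged widely when 1 library was left out, being 0.0274 without eIF4E Cap IP replicate 3, 0.23 without eIF4E Cap IP replicate 2, 0.38 without vector Cap IP replicate 1, 0.0749 without vector Cap IP replicate 2 and 0.083 without vector Cap IP replicate 3.

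Cap IP was then set against input within each kind of cell, which asks how far a row is enriched or depleted when capped RNA is pulled down. In eIF4E cells 2 members were called higher (NUP153 and RANBP1) and 9 lower, which is 6.25% and 28.1% of the 32. Of all tested rows, 45.1% were called in eIF4E cells, 21.9% higher and 23.3% lower. In vector cells 2 members were called higher (RANBP1 and SEH1L) and 9 lower, where 39.5% of all tested rows were called, 18.5% higher and 21.0% lower. With the title's culture stem as a replicate block, which paired the vector libraries, 4 members were higher in vector cells (ALYREF at 0.84 and NUP153 at 0.70 as well) and 12 lower (NUP155, NUP160 and RANGAP1 as well). With 1 library left out, 4 members were higher in eIF4E cells without input replicate 1, and 5 were lower in vector cells without Cap IP replicate 2. The median log2 difference of the members was -0.65 in eIF4E cells and -0.65 in vector cells, against -0.13 over all tested rows in eIF4E cells and -0.05 in vector cells. The members that fell in both kinds of cell were 7 in number, NUP93, NUP188, NUP205, NUP210, NUP98, NUP214 and RANBP2, and 1 member, RANBP1, rose in both. That is 21.9% of the 32 lower and 3.12% higher in both, where 15.6% of all tested rows were lower and 15.3% higher in both. The libraries of the 2 kinds of cell are separate, but both comparisons come from 1 fit with the same filter, scaling and estimates of spread. The calls in the 2 kinds of cell are therefore not independent. Scaling matters here: with total counts as library sizes, the median of all tested rows moved to -0.97 in eIF4E cells and -0.76 in vector cells. Called rows then split 1120 higher to 5805 lower in eIF4E cells and 774 to 4949 in vector cells, against 2727 to 2897 in eIF4E cells and 2302 to 2620 in vector cells with TMM. Changes in this comparison are therefore relative to the bulk of rows.

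**Figure D3:**
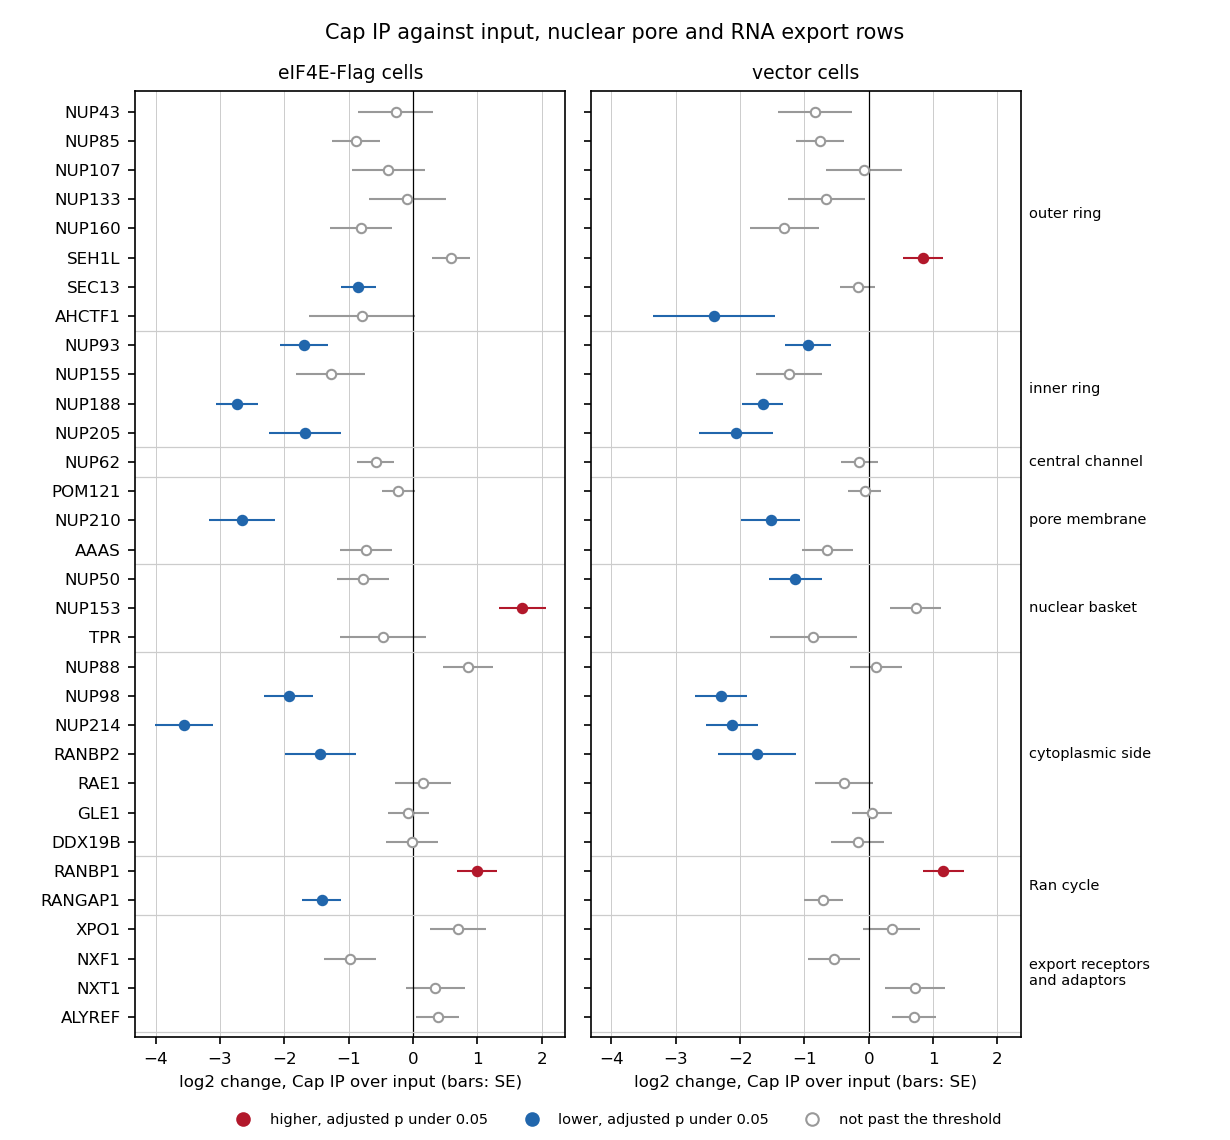
Log2 difference of Cap IP over input for the 32 tested members in eIF4E-Flag cells on the left and vector cells on the right, with bars of 1 SE and members grouped by role. The 7 rows lower in both panels lie in the inner ring, the membrane and the cytoplasmic side, and RANBP1 is higher in both.

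The inner ring, the scaffold layer next to the membrane, had 3 of 4 tested members lower in Cap IP in both kinds of cell, with a median of -1.69 in eIF4E cells and -1.45 in vector cells. NUP188 (chr9:128947699-129007096, plus strand) had 7.04, 10.4 and 12.6 CPM in Cap IP of eIF4E cells, against 67.4, 65.2 and 70.2 CPM in their input. Vector Cap IP libraries had 18.1, 13.4 and 10.6 CPM of it, against 48.8, 40.4 and 41.9 CPM in vector input. Neither pair of groups overlapped, and the log2 differences were -2.74 ± 0.33 in eIF4E cells and -1.65 ± 0.31 in vector cells (edgeR adjusted p = 4.74e-06 and 0.000423). NUP205, the paralogous scaffold protein, had 6.04, 2.84 and 2.92 CPM in Cap IP against 13.2, 19.6 and 5.09 CPM in input of eIF4E cells. The vector cells gave 4.77, 2.06 and 1.88 CPM in Cap IP, against 11.4, 12.1 and 12.4 CPM in input. Its groups overlapped in eIF4E cells and not in vector cells, with log2 differences of -1.68 ± 0.56 in eIF4E cells and -2.06 ± 0.58 in vector cells (edgeR adjusted p = 0.0185 and 0.00791). In eIF4E cells the call for NUP205 was lost without input replicate 2 (-1.23, edgeR adjusted p = 0.109), Cap IP replicate 2 (-1.52, adjusted p = 0.0724) or Cap IP replicate 3 (-1.55, adjusted p = 0.0643). NUP93, which links the inner ring to the channel, had 8.05, 9.47 and 18.5 CPM in Cap IP against 38.7, 38.8 and 40.2 CPM in input of eIF4E cells. In vector cells it had 14.3, 18.6 and 14.4 CPM in Cap IP against 24.1, 44.02 and 22.4 CPM in input. The groups did not overlap in either, with log2 differences of -1.70 ± 0.37 in eIF4E cells and -0.94 ± 0.36 in vector cells (edgeR adjusted p = 0.00106 and 0.0425). In vector cells the NUP93 call was lost without input replicate 2 (-0.57, edgeR adjusted p = 0.248), Cap IP replicate 1 (-0.89, adjusted p = 0.111), 2 (-1.08, adjusted p = 0.059) or 3 (-0.90, adjusted p = 0.102). NUP155 had -1.28 ± 0.54 in eIF4E cells and -1.24 ± 0.52 in vector cells and did not pass (edgeR adjusted p = 0.0595 and 0.0616). With the replicate block NUP155 was called lower in both, at -1.23 in eIF4E cells and -1.29 in vector cells (edgeR adjusted p = 0.042 and 0.0242).

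On the cytoplasmic side, 3 of 7 tested members fell in both kinds of cell, and the others did not pass in either without the replicate block. NUP214 (chr9:131125573-131234663, plus strand) had 3.02, 1.89 and 3.89 CPM in Cap IP of eIF4E cells (3, 2 and 4 counts), against 34.9, 40.2 and 31.1 CPM in their input (90, 84 and 61 counts). Vector Cap IP libraries had 7.62, 2.06 and 6.26 CPM of it, against 26.6, 27.2 and 18.7 CPM in vector input. Groups did not overlap, and the log2 differences were -3.56 ± 0.45 in eIF4E cells and -2.13 ± 0.41 in vector cells (edgeR adjusted p = 7.8e-06 and 0.000441). The Cap IP counts lie near the floor of 3 counts, so the size of the fall in eIF4E cells is poorly fixed. NUP98 (chr11:3671083-3797792, minus strand), a channel nucleoporin that binds RAE1 and is present on both faces, had 8.05, 15.2 and 8.75 CPM in Cap IP against 43.0, 55.6 and 23.9 CPM in input of eIF4E cells. The vector cells gave 4.77, 8.24 and 6.26 CPM in Cap IP, against 27.9, 34.6 and 31.9 CPM in input. Neither comparison overlapped, and its log2 differences were -1.93 ± 0.38 in eIF4E cells and -2.29 ± 0.41 in vector cells (edgeR adjusted p = 0.000436 and 0.000233). RANBP2 had 3.02, 4.73 and 5.83 CPM in Cap IP against 19.4, 12.5 and 5.09 CPM in input of eIF4E cells, with overlap. In vector cells it had 1.91, 3.09 and 3.13 CPM in Cap IP against 13.9, 5.76 and 8.71 CPM in input, without overlap. Its log2 differences of -1.44 ± 0.55 in eIF4E cells and -1.74 ± 0.60 in vector cells passed (edgeR adjusted p = 0.0395 and 0.027). In eIF4E cells the RANBP2 call was lost without input replicate 1 (-0.94, edgeR adjusted p = 0.219) or 2 (-1.44, adjusted p = 0.0717), or without Cap IP replicate 1 (-1.25, adjusted p = 0.128), 2 (-1.49, adjusted p = 0.0881) or 3 (-1.70, adjusted p = 0.0546). In vector cells it was lost without input replicate 1 (-1.39, edgeR adjusted p = 0.106) or Cap IP replicate 1 (-1.56, adjusted p = 0.0897), 2 (-1.81, adjusted p = 0.061) or 3 (-1.90, adjusted p = 0.0559).

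The remaining members of the cytoplasmic export platform were not called in either kind of cell without the replicate block. GLE1 had 29.2, 20.8 and 23.3 CPM in Cap IP against 31.4, 19.6 and 26.0 CPM in input of eIF4E cells, and 36.2, 27.8 and 21.3 CPM against 30.4, 25.1 and 26.1 CPM in vector cells. DDX19B had 22.1, 15.2 and 12.6 CPM in Cap IP against 22.5, 10.5 and 17.3 CPM in input of eIF4E cells, and 18.1, 13.4 and 8.14 CPM against 15.2, 18.9 and 9.96 CPM in vector cells. RAE1 had 13.1, 20.8 and 9.72 CPM in Cap IP against 16.3, 8.15 and 14.8 CPM in input of eIF4E cells, and 14.3, 7.21 and 9.39 CPM against 19.6, 13.6 and 7.88 CPM in vector cells. All 6 of these pairs overlapped, and their log2 differences lay between -0.39 and 0.15 with TMM. NUP88, the partner of NUP214, had 0.85 ± 0.39 in eIF4E cells and 0.11 ± 0.40 in vector cells and did not pass (edgeR adjusted p = 0.0815 and 0.85). With the replicate block NUP88 was called higher in eIF4E cells (0.89, edgeR adjusted p = 0.0353).

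In the outer ring, which holds the Y complex, the 8 tested members had medians of -0.59 in eIF4E cells and -0.71 in vector cells, and each kind of cell had its own calls. SEC13, shared with the COPII coat of secretory vesicles, was lower in Cap IP of eIF4E cells with 42.2, 45.4 and 30.1 CPM against 62.0, 71.9 and 79.4 CPM in input. Its log2 difference was -0.85 ± 0.27 (edgeR adjusted p = 0.0156), and without Cap IP replicate 3 it was -0.72 and did not pass (edgeR adjusted p = 0.0674). In vector cells SEC13 had 54.3, 52.5 and 46.9 CPM in Cap IP against 58.3, 67.1 and 48.1 CPM in input, which overlapped. SEH1L was higher in Cap IP of vector cells with 21.0, 29.9 and 18.1 CPM against 12.04, 12.1 and 13.7 CPM in input, a log2 difference of 0.84 ± 0.31 (edgeR adjusted p = 0.0383). That call was lost when any 1 of 5 libraries was left out, namely input replicate 1 (0.82, edgeR adjusted p = 0.0908), 2 (0.81, adjusted p = 0.0881) or 3 (0.91, adjusted p = 0.064) and Cap IP replicate 1 (0.90, adjusted p = 0.0552) or 2 (0.62, adjusted p = 0.17). In eIF4E cells SEH1L had 33.2, 36.0 and 34.0 CPM in Cap IP against 21.7, 24.9 and 21.9 CPM in input, without overlap, and 0.59 ± 0.30 did not pass (edgeR adjusted p = 0.108). AHCTF1, which seeds new pores on chromatin, was lower in vector Cap IP with 3, 1 and 0 counts against 14, 9 and 14 in vector input. Its log2 difference of -2.41 ± 0.95 (edgeR adjusted p = 0.0485) was lost when any vector library other than Cap IP replicate 1 was left out, with values of -2.13 (adjusted p = 0.117), -2.58 (adjusted p = 0.0575) and -2.47 (adjusted p = 0.0723) without input replicates 1, 2 and 3, and of -2.36 (adjusted p = 0.115) and -1.68 (adjusted p = 0.188) without Cap IP replicates 2 and 3. The other 5, NUP43, NUP85, NUP107, NUP133 and NUP160, lay between -1.31 and -0.07 in both kinds of cell and did not pass without the replicate block.

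Of the pore membrane proteins, NUP210 alone was called. It had 2.01, 1.89 and 2.92 CPM in Cap IP (2, 2 and 3 counts) against 12.4, 13.4 and 18.8 CPM in input of eIF4E cells. Vector Cap IP libraries had 2.86, 6.18 and 3.75 CPM of it, against 11.4, 9.43 and 15.3 CPM in vector input. No groups overlapped, and the log2 differences were -2.66 ± 0.51 in eIF4E cells and -1.52 ± 0.46 in vector cells (edgeR adjusted p = 0.000352 and 0.0126). In vector cells the call was lost without Cap IP replicate 1 (-1.32, edgeR adjusted p = 0.0513) or input replicate 3 (-1.29, adjusted p = 0.0614). POM121, a membrane nucleoporin, lay at -0.23 ± 0.26 in eIF4E cells and -0.06 ± 0.26 in vector cells, and AAAS (aladin) at -0.73 ± 0.41 in eIF4E cells and -0.64 ± 0.40 in vector cells. NUP62 of the channel lay at -0.58 ± 0.29 in eIF4E cells and -0.15 ± 0.29 in vector cells. None of these 3 passed in either kind of cell without the replicate block, with which NUP62 was called lower in eIF4E cells (-0.59, edgeR adjusted p = 0.0371).

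Of the basket proteins, 1 was called higher in eIF4E cells and 1 lower in vector cells. NUP153 was higher in Cap IP of eIF4E cells with 75.4, 225 and 190.5 CPM against 34.1, 55.6 and 62.1 CPM in input, and the log2 difference was 1.70 ± 0.36 (edgeR adjusted p = 0.00083). The vector cells gave 23.8, 48.4 and 29.4 CPM in Cap IP, against 20.3, 22.0 and 18.7 CPM in input, also without overlap, and 0.73 ± 0.39 did not pass (edgeR adjusted p = 0.145). With total counts as library sizes the value in vector cells was -0.02. NUP50, a basket protein that releases cargo from importin alpha, was lower in Cap IP of vector cells with 21.0, 6.18 and 13.8 CPM against 26.0, 33.5 and 31.5 CPM in input. Its log2 difference was -1.14 ± 0.41 (edgeR adjusted p = 0.0329). It was lost without input replicate 2 (-1.07, edgeR adjusted p = 0.0808) or 3 (-1.11, adjusted p = 0.0671), or without Cap IP replicate 2 (-0.84, adjusted p = 0.148) or 3 (-1.17, adjusted p = 0.0691). In eIF4E cells NUP50 had 23.1, 14.2 and 16.5 CPM in Cap IP against 46.5, 27.8 and 17.3 CPM in input, and -0.78 ± 0.40 did not pass. TPR, which forms the basket's strands, varied widely with 22.1, 4.73 and 9.72 CPM in Cap IP against 38.0, 7.19 and 4.07 CPM in input of eIF4E cells.

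The Ran cycle members moved in opposite directions in eIF4E cells. RANBP1 (chr22:20115938-20127355, plus strand) had 711, 569 and 454 CPM in Cap IP against 350.0, 230.0 and 291 CPM in input of eIF4E cells. In vector cells it had 602, 868 and 526 CPM in Cap IP against 251, 432 and 209 CPM in input. Groups did not overlap in either, and the log2 differences were 0.99 ± 0.32 in eIF4E cells and 1.16 ± 0.32 in vector cells (edgeR adjusted p = 0.0148 and 0.00671). In eIF4E cells the call was lost without Cap IP replicate 1 (0.81, edgeR adjusted p = 0.0723) or input replicate 2 (0.85, adjusted p = 0.0726). With total counts as library sizes RANBP1 stood at 0.13 in eIF4E cells and 0.40 in vector cells and did not pass (edgeR adjusted p = 0.713 and 0.257), and SEH1L in vector cells to 0.10 (adjusted p = 0.819). RANGAP1, the GTPase-activating protein, had 58.3, 68.2 and 53.5 CPM in Cap IP against 133, 189.8 and 158 CPM in input of eIF4E cells. Vector Cap IP libraries had 57.2, 73.2 and 58.8 CPM of it, against 87.5, 155 and 67.2 CPM in vector input. It passed in eIF4E cells at -1.42 ± 0.31 (edgeR adjusted p = 0.000977), and -0.71 ± 0.30 in vector cells, where the groups overlapped, did not (adjusted p = 0.0682).

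None of the 4 export receptors and adaptors was called in Cap IP against input in edgeR without a replicate block, with medians of 0.37 in eIF4E cells and 0.53 in vector cells. With the replicate block in vector cells, ALYREF was called higher at 0.84 (edgeR adjusted p = 0.00468). In eIF4E cells the block called XPO1 higher at 0.78 and NXF1 lower at -1.04 (edgeR adjusted p = 0.0232 and 0.0134). XPO1 had 46.3, 22.7 and 31.1 CPM in Cap IP against 34.5, 11.98 and 14.2 CPM in input of eIF4E cells, and 41.9, 29.9 and 15.7 CPM against 32.3, 19.9 and 15.8 CPM in vector cells. The groups overlapped, and the log2 differences were 0.70 ± 0.44 in eIF4E cells and 0.35 ± 0.44 in vector cells. With total counts they were -0.18 in eIF4E cells and -0.39 in vector cells. Without eIF4E input replicate 1, XPO1 passed in eIF4E cells at 1.34 (edgeR adjusted p = 0.0257). NXF1 had 5.03, 13.2 and 18.5 CPM in Cap IP against 23.2, 23.0 and 27.0 CPM in input of eIF4E cells, and 6.67, 16.5 and 16.3 CPM against 20.3, 18.3 and 19.5 CPM in vector cells. Its groups did not overlap in either kind of cell. Its log2 differences were -0.98 ± 0.40 in eIF4E cells and -0.54 ± 0.40 in vector cells (edgeR adjusted p = 0.0526 and 0.295), and in eIF4E cells DESeq2 called it (-1.01, adjusted p = 0.0479), as did edgeR without Cap IP replicate 3 (-1.42, adjusted p = 0.0226). NXT1 and ALYREF lay above 0 in both kinds of cell, at 0.35 ± 0.46 and 0.38 ± 0.34 in eIF4E cells and at 0.72 ± 0.47 and 0.70 ± 0.34 in vector cells. Over all members, Cap IP and input groups did not overlap for 3 members higher and 11 lower in eIF4E cells, where 25.3% of all tested rows were higher and 29.5% lower without overlap. In vector cells there were 3 higher and 14 lower, where 22.7% of all tested rows were higher and 27.2% lower.

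The difference of the Cap IP effect, eIF4E minus vector, was tested as an interaction. No member passed in edgeR and no row did, which is 0% of 12460. An unadjusted p under 0.05 was found for 2 members and 734 rows, and DESeq2 called 0 members and 0 rows. NUP214 had the most negative value with -1.44 ± 0.65 and NUP188 had -1.09 ± 0.46, each with an edgeR adjusted p of 0.832. Per culture, with 2 CPM added, the log2 ratio of Cap IP over input of NUP188 was -2.94, -2.44 and -2.30 in eIF4E cells, against -1.34, -1.46 and -1.80 in vector cells, without overlap. That of NUP214 was -2.88, -3.44 and -2.49 in eIF4E cells, against -1.57, -2.85 and -1.32 in vector cells, with overlap. NUP153 had ratios of 1.10, 1.98 and 1.59 in eIF4E cells, against 0.21, 1.07 and 0.60 in vector cells, without overlap, and its difference of 0.97 ± 0.53 did not pass (edgeR adjusted p = 0.832). The interval of the NUP153 difference ran from -0.13 to 2.07. So a member called in one kind of cell and not in the other (NUP153, SEC13 and RANGAP1 in eIF4E cells, SEH1L, NUP50 and AHCTF1 in vector cells) is not shown to differ between them.

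For some of the members, the counts of opposite rows were set beside their own. NUP88 had 284 counts over all libraries and RPAIN, opposite to it, 2463, and RPAIN was higher in Cap IP at 2.45 ± 0.51 in eIF4E cells and 1.83 ± 0.50 in vector cells (edgeR adjusted p = 0.000656 and 0.00665). RABEP1, which shares 3786 exon bases opposite to NUP88 against 454 for RPAIN, had 351 counts and did not pass. ALYREF had 2032 counts and ANAPC11 6274, and ANAPC11 was higher in Cap IP at 1.79 ± 0.33 in eIF4E cells and 1.93 ± 0.34 in vector cells (edgeR adjusted p = 0.000267 and 0.000204). NUP62 had 1253 counts and ATF5 2868, and ATF5 did not pass. RANBP1 stood far above its opposite row, with 7769 counts against 498 for TRMT2A, which was lower in Cap IP of eIF4E cells at -0.93 ± 0.35 (edgeR adjusted p = 0.0331). NUP188 had 783 counts and SH3GLB2 659, and SH3GLB2 was lower in Cap IP at -1.08 ± 0.39 in eIF4E cells and -1.21 ± 0.41 in vector cells (edgeR adjusted p = 0.0293 and 0.0235). AHCTF1 shares 81 exon bases on its own strand with the pseudogene KIF28P, which had 120 counts beside its 86 and was lower in Cap IP at -3.41 ± 1.03 in eIF4E cells and -4.57 ± 0.80 in vector cells (edgeR adjusted p = 0.0111 and 0.000199). DDX19B had 294 counts and AARS 1160, and AARS was lower in Cap IP at -1.84 ± 0.30 in eIF4E cells and -1.04 ± 0.29 in vector cells. POM121 had 1864 and NSUN5P2 769, and NSUN5P2 was lower at -1.30 ± 0.31 in eIF4E cells and -1.65 ± 0.32 in vector cells. NUP98 had 517 and PGAP2 408, and PGAP2 did not pass, at 0.31 ± 0.37 in eIF4E cells and -0.13 ± 0.36 in vector cells. TPR had 295 counts and PRG4, opposite over 670 exon bases, 596. PRG4 was lower in Cap IP of vector cells at -1.34 ± 0.44 (edgeR adjusted p = 0.0196) and did not pass in eIF4E cells. Some of the overlaps are short, with 62 exon bases shared for ANAPC11, 61 for SH3GLB2, 43 for AARS and 20 for PGAP2. Others are longer, with 565 for ATF5 and 393 for TRMT2A. The part of these neighbours in the members' values was not tested. Near-identical copies add uncertainty for RANBP2 (the RGPD genes), POM121 (POM121C) and DDX19B (DDX19A).

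Gene length varied with the Cap IP difference among the members. Over the 32 tested members, Spearman's rho of gene length with the log2 difference was -0.44 in eIF4E cells and -0.57 in vector cells. With exon length it was -0.36 in eIF4E cells and -0.40 in vector cells. Over 9655 tested rows matched to the annotation, rho with gene length was -0.11 in eIF4E cells and -0.19 in vector cells, and with exon length -0.21 in eIF4E cells and -0.27 in vector cells. These are correlations across genes that share the same libraries and depth, and genes are not independent replicates. NUP153, one of the longer genes, had a positive value in both kinds of cell.

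**Figure D4:**
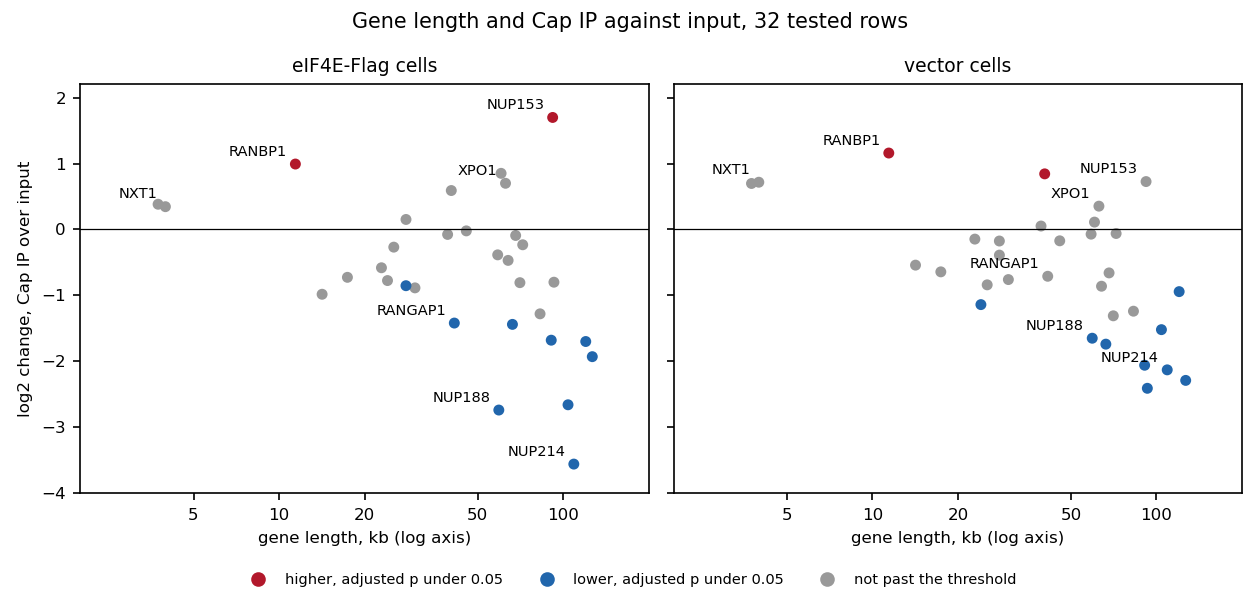
Log2 difference of Cap IP over input against gene length in kb (log axis) for the 32 tested members, in eIF4E-Flag cells on the left and vector cells on the right. Called members are coloured. NUP214, a long gene, lies low, NXT1, a short one, lies above 0, and NUP153 lies high among the long genes. Other points go the other way. The unlabelled short genes NXF1 and AAAS lie below 0 in both panels, and XPO1, a longer gene, lies above 0 in both.

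Of other transport genes, 68 had a row and 56 were tested. In input 0 of the 56 were called between eIF4E and vector cells in edgeR, and in Cap IP 0. In Cap IP against input, 7 were higher and 14 lower in eIF4E cells, and 5 were higher and 12 lower in vector cells. The shares lower were 25% in eIF4E cells and 21.4% in vector cells, against 23.3% and 21.0% of all tested rows. The shares higher were 12.5% in eIF4E cells and 8.93% in vector cells, against 21.9% and 18.5% of all tested rows. Importins, the receptors that bring cargo through the same pores, were lower for 5 of 16 in eIF4E cells and 6 of 16 in vector cells, with 0 higher in either. IPO4 was the importin with the smallest p, at -2.63 ± 0.40 in eIF4E cells and -1.55 ± 0.40 in vector cells (edgeR adjusted p = 4.16e-05 and 0.00447). Other exportins were lower for 2 of 5 in eIF4E cells and 3 of 5 in vector cells, with XPO7 at -1.56 ± 0.37 in eIF4E cells and -1.41 ± 0.38 in vector cells. mRNA export adaptors were called in both directions, 4 higher and 4 lower of 23 in eIF4E cells and 5 higher and 2 lower in vector cells. THOC6, a TREX subunit, was higher at 0.79 ± 0.30 in eIF4E cells and 1.43 ± 0.31 in vector cells, and POLDIP3, an adaptor of TREX, was lower at -1.28 ± 0.31 in eIF4E cells and -1.26 ± 0.31 in vector cells. POM121C, the copy of POM121, was lower at -2.31 ± 0.55 in eIF4E cells and -1.62 ± 0.51 in vector cells. It alone was called lower among the 6 tested genes of its list, other pore genes. In eIF4E cells 2 of that list were higher, NUP210L at 0.91 ± 0.33 and SENP1 at 1.21 ± 0.47. Of 6 other Ran cycle genes, 1 was higher in eIF4E cells (RANBP9 at 1.1 ± 0.35). There 2 were lower, RANBP10 at -2.71 ± 0.55 and RANBP3 at -0.94 ± 0.33, and in vector cells 0 were called.

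Spread between replicates differed among the members. Of the 32 tested members, 19 had their highest vector Cap IP value in replicate 1 and 3 in replicate 3, which is 59.4% and 9.38%, against 31.4% and 36.5% of all tested rows. In vector input, 15 members were highest in replicate 1 and 4 in replicate 3, which is 46.9% and 12.5%, against 29.99% and 39.1% of all tested rows. In both kinds of RNA of vector cells, more members were thus highest in replicate 1 than in either of the others. The lead was small in vector input, where 13 members were highest in replicate 2 (40.6%, against 30.9% of all tested rows). Replicate 3 was lowest there for 17 members, which is 53.1%, against 30.2% of all tested rows. In eIF4E Cap IP, 10 were highest in replicate 1 and 14 in replicate 3, which is 31.2% and 43.8%, against 37.8% and 31.1% of all tested rows. In eIF4E input, 14 were highest in replicate 1 and 12 in replicate 3, which is 43.8% and 37.5%, against 31.04% and 45.4% of all tested rows. TPR, which was highest in replicate 1 of both input groups, had 38.0, 7.19 and 4.07 CPM in eIF4E input and 26.0, 8.91 and 18.2 CPM in vector input. Without eIF4E input replicate 1, the members' median Cap IP difference in eIF4E cells moved to -0.30, and 4 members were called higher. The labels give no batch that would set these replicates apart beyond the tags in their titles, and the cause was not tested.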

How the data were processed

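RNA of U2OS cells was sequenced in 12 libraries, 4 groups of 3. The submitters' processing notes name STAR 2.5.1b, featureCounts 1.4.5-p1, DESeq2 and the build GRCh38.p5. The authors deposited raw counts per gene name, with no normalization. Per the labels' protocols, the kit was KAPA RNA HyperPrep with RiboErase, and reads were single-ended. For the counting, no treatment of strand and no gene annotation is given in the sources used here.

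From the counts, edgeR 4.0.16 (with limma 3.58.1, in R 4.3.3) gave TMM factors (0.673 to 0.894 in Cap IP, 1.17 to 1.48 in input) and a quasi-likelihood fit with 1 mean per group over the 12460 rows kept by filterByExpr. The common dispersion was 0.0883. Adjusted p-values are Benjamini-Hochberg values over all tested rows. Replicate pairs differed by a chi-square per degree of freedom of 6.14 to 23.4, so none was a copy of another. Genes were located in GENCODE release 44, and figures and sequences used Python 3.11.15, pandas 2.3.3, NumPy 2.4.6 and matplotlib 3.10.9. The procedure was tested on simulated data.

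The members and the gene lists were chosen with earlier results of these data known. Values per library are given for members called in a comparison, up to the 8 with the smallest p in a direction, and for NUP153, RANBP2, NUP214, RANBP1, GLE1, DDX19B, RAE1, XPO1 and NXF1. AHCTF1, TPR and the values of other members were added after their values were seen. In the lists of other transport genes, up to 3 with the smallest p could be named.

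A Cap IP library and an input library have a common title stem (called a culture here), and an eIF4E and a vector library have a common tag. The labels do not say what these mark. The residuals of libraries with the same stem correlated at 0.35, 0.08 and 0.11 in eIF4E cells and at 0.43, 0.27 and 0.44 in vector cells. Those with the same tag correlated at 0.20, 0.16 and 0.31 in Cap IP and at 0.18, 0.013 and -0.036 in input. The pairing was therefore clearer in vector cells for the stem and in Cap IP for the tag, and weak in eIF4E cells and in input. The replicate block was the stem for Cap IP against input and its difference between the cells, and the tag for eIF4E against vector. Block calls in eIF4E cells and in input thus rest on a weak pairing, and the main fit used no block. Other fits used DESeq2 1.42.0, its size factors, library totals, all rows unfiltered, rows with at least 50 counts in 3 libraries, the compared groups alone, a replicate block, or 1 library less.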

Additional observations from a re-analysis of the deposited data

How the results depend on the processing

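Counts of called members and their medians held within the limits used (a count within 1.5 times) 182 times and moved 28 times. With total counts as library sizes, 1 member was higher and 18 lower in Cap IP against input in eIF4E cells, and 0 higher and 19 lower in vector cells, with medians of -1.45 in eIF4E cells and -1.35 in vector cells. Members called higher in vector cells were 1 with no filter on low counts, 1 with at least 50 counts in 3 libraries, 1 with only the groups compared and 1 in DESeq2. With at least 50 counts in 3 libraries the median in eIF4E cells was -0.89. With the replicate block, 4 members were higher in eIF4E cells and 4 in vector cells, and 1 member was higher in eIF4E than in vector input (NUP153 at 1.28, edgeR adjusted p = 0.0148), as was 1 with no filter on low counts (NUP153 at 1.41, adjusted p = 0.00832). In eIF4E cells the block also called XPO1 (0.78, edgeR adjusted p = 0.0232) and NUP88 (0.89, adjusted p = 0.0353) higher. It also called NXF1 (-1.04, adjusted p = 0.0134), NUP155 (-1.23, adjusted p = 0.042), NUP85 (-0.89, adjusted p = 0.025) and NUP62 (-0.59, adjusted p = 0.0371) lower there. The block changed no other count of members by over 1.5 times. It called 159 higher and 305 lower rows of all in input, 73 and 82 in Cap IP, and 51 higher for the difference. For Cap IP against input it called 3251 rows higher and 3436 lower in eIF4E cells, and 2894 and 3187 in vector cells. Without the block these were 2727 and 2897 in eIF4E cells, and 2302 and 2620 in vector cells. The tag paired the input libraries weakly, as did the stem those of eIF4E cells.

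With 1 library left out in turn, Cap IP against input had 1 to 4 members higher and 7 to 11 lower in eIF4E cells, with medians of -0.82 to -0.30, and 1 to 2 higher and 5 to 7 lower in vector cells. eIF4E against vector in Cap IP had 0 to 1 higher. Of single members, 490 values kept direction and side of the threshold, 48 lost the call, 14 gained it and 40 changed sign. With total counts, GLE1 was -0.68 in Cap IP of vector cells and 0.00185 in input, NUP153 -0.0195 and XPO1 -0.39 in Cap IP of vector cells, RAE1 -0.70 and XPO1 -0.18 in Cap IP of eIF4E cells, RAE1 0.0399 and RANBP1 0.0485 in input. With no filter on low counts, GLE1 was -0.00438 in Cap IP of vector cells and 0.0263 in input, RAE1 -0.0137 in Cap IP of eIF4E cells and 0.0513 in input, and RANBP1 0.0524 in input. GLE1 was -0.0274 in Cap IP of vector cells with at least 50 counts in 3 libraries. With the replicate block DDX19B was 0.00739 in Cap IP of eIF4E cells and RANBP1 0.0253 in input. With 1 library left out, values in input ran from -0.0678 to 0.45 for DDX19B, -0.25 to 0.0788 for GLE1, -0.34 to 0.30 for RAE1, -0.24 to 0.34 for RANBP1, -0.0873 to 0.77 for RANBP2 and -0.77 to 0.20 for XPO1. Those in Cap IP against input ran from -0.29 to 0.26 in eIF4E cells and -0.48 to 0.091 in vector cells for DDX19B, -0.23 to 0.10 in eIF4E cells and -0.16 to 0.22 in vector cells for GLE1, -0.21 to 0.35 in eIF4E cells for RAE1 and -0.0146 to 0.69 in vector cells for XPO1. The cause was not tested.

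Over all rows, eIF4E against vector in input gave 13 higher and 53 lower, and 45 and 106 in DESeq2, 3 and 8 with total counts, 5 and 14 with only the groups compared, 6 and 27 with at least 50 counts, and 137 and 181 with no filter. In Cap IP it gave 10 higher and 18 lower, and 30 and 45 in DESeq2, 17 and 24 with only the groups compared, 5 and 13 with at least 50 counts and 98 and 106 with no filter. For the difference, no filter gave 3 higher. Depth limits Cap IP values such as those of NUP205, NUP210, NUP214, RANBP2 and AHCTF1, which rest on 0 to 10 counts per library.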
